A study of Rattus norvegicus with 24 samples.

Results

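The genes described here are 10 antioxidant genes around the transcription factor NRF2: Nfe2l2, which encodes NRF2 itself, the NRF2-target enzymes Nqo1, Gclc, Gclm and Txnrd1, the peroxidases Gpx1, Gpx4 and Prdx6, and the superoxide dismutases Sod1 and Sod2. They were taken by name from the count table, in which 26641 of 42334 loci carry a gene name, and each of the 10 matched 1 locus. Gpx4 is written GPX4 there, so names were matched without regard to case, and 9 of the 10 match as spelled. Messenger RNA was sequenced from cortex next to the lesion (perilesional) and from thalamus of the same side (ipsilateral), taken from adult male Sprague-Dawley rats 3 months after surgery. The 6 TBI rats had received lateral fluid-percussion injury, a pressure pulse onto the exposed dura over the left parietal lobe. The 6 sham-operated controls shared the anesthesia and the surgery with the TBI rats but received no impact. The TBI rats had been chosen by MRI for a rim of raised T2 signal around the lesion, so they stand for rats with chronic perilesional inflammation rather than for all injured rats. No transgene or study drug was assigned to either group. Rats with signs of pain received carprofen, and how many did so in each group is not stated. The MRI, done under isoflurane, is described for TBI rats only. Each rat gave 1 cortical and 1 thalamic library, 24 in all.

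NRF2 is held in the cytoplasm by KEAP1, which presents it for degradation. When oxidants or electrophiles modify KEAP1, NRF2 accumulates, enters the nucleus and binds, together with a small MAF protein, to antioxidant response elements of genes for glutathione synthesis, thioredoxin reduction, quinone reduction and iron storage. In brain the pathway is best known from astrocytes, whereas superoxide dismutases and glutathione peroxidases are made in most cells.

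The promoters of the genes are shown because the antioxidant response element has a recognisable core, which was searched as TGACNNNGC and, in a form with one letter changed, as TGAGNNNGC, on both strands. RefSeq promoters of the GRCr8 assembly, running from 250 bases before to 50 bases after a start, were at hand for 9 of the 10 genes. Prdx6 was not among them. TGACNNNGC stands in 4 of these 9 (Nfe2l2, Gclm, Txnrd1 and Sod2) and in 13.1% of the 27457 genes with such a promoter. TGAGNNNGC stands in 2 (Gpx1 and Gpx4), against 18.4% of all genes. The promoters of Nqo1, Gclc and Sod1 hold neither in this window. A match describes letters and is not a site shown to be bound. The sequences below run 5′ to 3′ along the strand of the gene in GRCr8, with the matched 9 bases in capitals. All 300 bases are given for Nfe2l2, Gclm, Gpx1 and Sod2, and for Nqo1 to show a promoter without a match. For Txnrd1 and Gpx4 the stretch around the match is given, and the promoters of Gclc and Sod1 are not printed.
Nfe2l2 (chr3:81028950-81029249, minus strand): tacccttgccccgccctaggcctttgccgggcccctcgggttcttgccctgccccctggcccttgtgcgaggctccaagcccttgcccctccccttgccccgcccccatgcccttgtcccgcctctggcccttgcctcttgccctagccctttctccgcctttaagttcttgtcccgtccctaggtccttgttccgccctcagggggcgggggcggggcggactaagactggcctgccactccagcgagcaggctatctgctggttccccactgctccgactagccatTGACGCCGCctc
Nqo1 (chr19:52220218-52220517, minus strand): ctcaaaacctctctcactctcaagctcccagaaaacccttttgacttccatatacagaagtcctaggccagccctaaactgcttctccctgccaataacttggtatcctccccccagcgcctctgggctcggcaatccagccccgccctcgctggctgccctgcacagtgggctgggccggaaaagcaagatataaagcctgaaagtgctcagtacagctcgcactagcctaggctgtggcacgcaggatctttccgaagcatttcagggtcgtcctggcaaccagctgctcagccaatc
Gclm (chr2:213031885-213032184, plus strand): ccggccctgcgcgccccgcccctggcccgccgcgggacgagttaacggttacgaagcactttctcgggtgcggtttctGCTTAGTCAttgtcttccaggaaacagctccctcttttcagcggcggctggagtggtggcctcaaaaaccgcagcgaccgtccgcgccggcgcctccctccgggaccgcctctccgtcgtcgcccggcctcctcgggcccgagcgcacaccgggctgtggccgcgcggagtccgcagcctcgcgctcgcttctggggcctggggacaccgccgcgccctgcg
Gpx1 (chr8:117905212-117905511, plus strand): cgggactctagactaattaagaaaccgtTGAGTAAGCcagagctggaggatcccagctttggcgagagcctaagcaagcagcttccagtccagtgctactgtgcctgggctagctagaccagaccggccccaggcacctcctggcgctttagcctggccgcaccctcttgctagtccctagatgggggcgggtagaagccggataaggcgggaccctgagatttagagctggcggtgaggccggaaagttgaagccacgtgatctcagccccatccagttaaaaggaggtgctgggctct
Sod2 (chr1:50050119-50050418, minus strand): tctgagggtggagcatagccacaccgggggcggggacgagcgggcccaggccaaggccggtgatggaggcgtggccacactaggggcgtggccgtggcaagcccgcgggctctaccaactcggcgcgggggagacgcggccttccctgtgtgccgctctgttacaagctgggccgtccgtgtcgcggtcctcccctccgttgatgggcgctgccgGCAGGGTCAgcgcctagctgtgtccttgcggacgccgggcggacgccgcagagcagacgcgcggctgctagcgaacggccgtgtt
Txnrd1, second listed start around the match (chr7:22755953-22756003, minus strand): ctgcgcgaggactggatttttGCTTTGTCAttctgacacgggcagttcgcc
Gpx4, first listed start around the match (chr7:10303763-10303813, minus strand): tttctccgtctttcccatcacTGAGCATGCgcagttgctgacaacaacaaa
Counted from the start, with bases before it negative, the match lies at 38 in Nfe2l2, at -172 in Gclm, at -35 in Sod2, at -78 from the second listed start of Txnrd1, at -222 in Gpx1 and at -163 from the first listed start of Gpx4. None of these 6 matches contains the AP-1 letters TGACTCA. Among 20 other NRF2 targets with a promoter, TGACNNNGC was found in 5 (Me1, Gstp1, Ephx1, Prdx1 and Ugdh), and in Me1, Gstp1, Ephx1 and Prdx1 the match also holds TGACTCA, so there the element and an AP-1 site cannot be told apart by their letters. TGAGNNNGC was found in 6 of the 20 (Srxn1, Tkt, Mgst1, Ugdh, Blvrb and Akr1b8). The shares over all genes are the 13.1% and 18.4% given above.

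In the count table the loci lie, as its positions are listed, on chromosome 3 from 69041641 to 69069142 for Nfe2l2, on chromosome 19 from 49291902 to 49306850 for Nqo1, on chromosome 8 from 84627767 to 84666320 for Gclc, on chromosome 2 from 243862711 to 243887786 for Gclm and on chromosome 7 from 27065819 to 27104095 for Txnrd1. Gpx1 lies on chromosome 8 from 116466149 to 116467210, Gpx4 on chromosome 7 from 12686138 to 12689225, Prdx6 on chromosome 13 from 83972028 to 83983136, Sod1 on chromosome 11 from 33982596 to 34047555 and Sod2 on chromosome 1 from 51827250 to 51835190. The submitters name Rnor_5.0 as the build, and these positions are not comparable with the GRCr8 promoters above. The Sod1 locus has the same span as a second locus, Scaf4, whose mean value is 19.9% of that of Sod1, so the division of fragments between the 2 is uncertain. No other member overlaps a named or unnamed locus.

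Values are normalized counts, that is fragments per locus divided by a size factor of the library. They are not scaled to gene length, so levels are compared between libraries for a gene. Counts of different genes are combined only for Scaf4 beside Sod1, the marker sums and the ratio of Gclc to Gclm. Those values depend on gene length as well. The libraries held 30568927 to 54608922 fragments. The lowest value of any member in any library was 509 fragments, so all 10 passed the filter of a mean normalized count of 10 in every comparison. That value was of Nqo1 in sham cortex, where counting alone gives a coefficient of variation of 4.43% beside 6.02% between the rats. Over all members and groups the coefficient of variation between rats ran from 2.04% to 18.4%. A difference is called when the adjusted p of limma, over all loci tested, is under 0.05. Log2 differences are of log2(normalized count + 1) and are given as TBI minus sham ± SE with 6 rats in each group. All values come from bulk tissue, in which fewer cells of a type and less RNA per cell cannot be told apart.

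In the perilesional cortex 4 of the 10 genes were higher after TBI (Nfe2l2, Nqo1, Gpx1 and Prdx6), 1 was lower (Sod2) and 5 were not called. Of all 15493 loci tested there, 14.3% were called higher and 14.9% lower. In 4 of the 10 the 6 TBI values and the 6 sham values did not overlap, against 12.5% of all loci. In the ipsilateral thalamus 3 of the 10 were higher (Nfe2l2, Nqo1 and Prdx6), 3 were lower (Gclm, Gpx4 and Sod2) and 4 were not called. Of 15564 loci tested there, 14.5% were called higher and 20.9% lower, and for 3 of the 10 genes the groups did not overlap, against 18.2% of loci. The lower calls in thalamus depend on the scaling: with TMM factors 1 of the 10 was called lower, Sod2, and over all loci the share of lower calls among all calls went from 59.0% to 45.7%. Nfe2l2, Nqo1 and Prdx6 were higher in both regions, as were 8.28% of the 15123 loci tested in both, and Sod2 was lower in both, as were 8.94%.

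**Figure D1:**
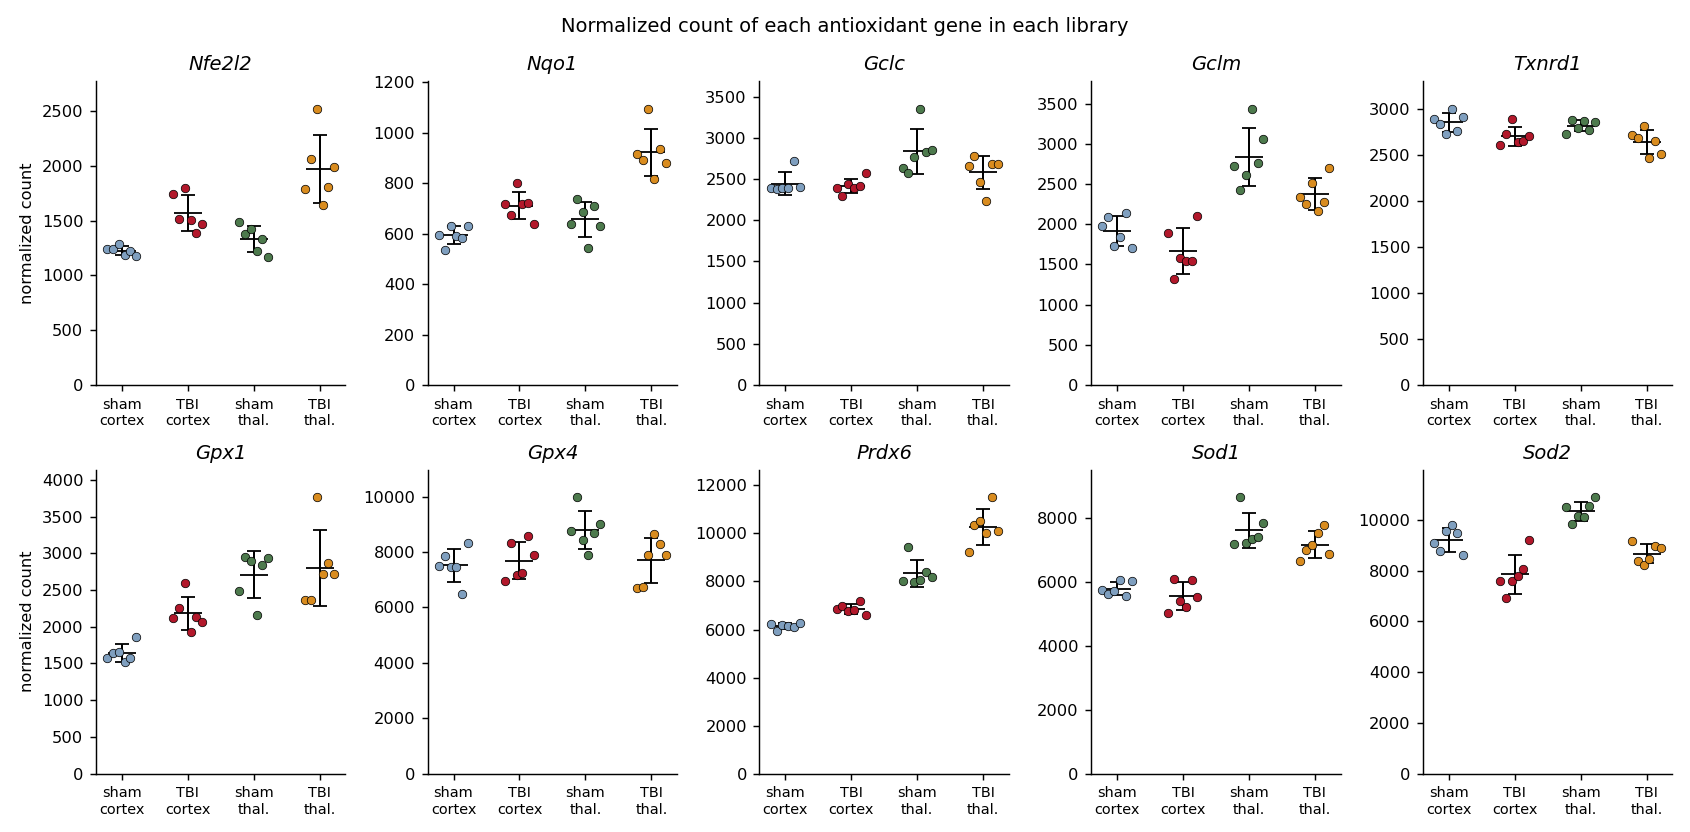
Normalized count (vertical axis, from 0) of each of the 10 genes in each library, by group (horizontal axis). Each point is a rat, the horizontal line the mean and the bars 1 SD of 6 rats. For Nfe2l2 and Nqo1 every TBI point lies above every sham point of the same region, and for Gpx1 this holds in cortex alone, where the groups run from 1520 to 1863 and from 1927 to 2593.

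Nfe2l2 had the largest rise of the 10 in thalamus. In sham cortex its normalized count ran from 1180 to 1292 with a median of 1233, and in TBI cortex from 1392 to 1795 with a median of 1509. In thalamus it ran from 1173 to 1484 in sham rats, median 1357, and from 1643 to 2523 in TBI rats, median 1900. In both regions every injured rat was above every sham rat, and the highest TBI value belonged to rat 45 in each. The difference was 0.35 ± 0.064 in cortex (limma, adjusted p = 0.00104), a level 27.5% higher, and 0.55 ± 0.093 in thalamus (limma, adjusted p = 0.000441), a level 46.4% higher. Without rat 45 the calls were unchanged, as in all 22 alternatives in each region, over which the difference ran from 0.31 to 0.38 in cortex and from 0.48 to 0.61 in thalamus.

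Nqo1 encodes a quinone reductase that is widely used as a readout of NRF2. Its normalized count was 533 to 632 in sham cortex, median 593, and 639 to 802 in TBI cortex, median 717. In thalamus it was 543 to 737 in sham rats, median 662, and 818 to 1095 in TBI rats, median 904. The groups were separate in both regions, narrowly so in cortex, where the highest sham value was 632 and the lowest TBI value 639. The difference was 0.26 ± 0.065 in cortex (limma, adjusted p = 0.00810) and 0.49 ± 0.083 in thalamus (limma, adjusted p = 0.000455), levels 19.7% and 40.5% higher. Both calls held in all 22 alternatives. As for Nfe2l2, the highest TBI value was that of rat 45 in either region.

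Gclc and Gclm encode the catalytic and the modifier subunit of glutamate-cysteine ligase, the first enzyme of glutathione synthesis. Neither rose with Nfe2l2. Gclc ran from 2380 to 2718 in sham cortex and from 2295 to 2571 in TBI cortex, and from 2570 to 3353 in sham thalamus and from 2230 to 2782 in TBI thalamus. Its differences were -0.02 ± 0.047 in cortex (limma, adjusted p = 0.817, 95% interval -0.12 to 0.08) and -0.13 ± 0.069 in thalamus (limma, adjusted p = 0.151, -0.28 to 0.01).

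Gclm ran from 1707 to 2146 in sham cortex, median 1910, and from 1315 to 2108 in TBI cortex, median 1565. In sham thalamus it ran from 2426 to 3439, median 2740, and in TBI thalamus from 2167 to 2706, median 2305. The groups overlapped in both regions, with 4 of 6 TBI rats under all sham rats in each. The difference was -0.21 ± 0.099 in cortex (limma, adjusted p = 0.121) and -0.25 ± 0.080 in thalamus (limma, adjusted p = 0.0250), where the level fell by 15.9%. The cortical value passed the threshold without TBI rat 63, whose cortex had the highest TBI value (-0.28, adjusted p = 0.0216). The thalamic call was lost in 6 of 22 alternatives, with TMM factors (-0.20, adjusted p = 0.0637), with edgeR on the recovered fragments (-0.20, adjusted p = 0.0631), at a threshold of 0.01, and without sham rat 55 (adjusted p = 0.0605), TBI rat 24 (0.0514) or TBI rat 52 (0.0535).

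Txnrd1, the cytosolic thioredoxin reductase, had overlapping values in all 4 groups. It ran from 2727 to 3001 in sham cortex and from 2602 to 2894 in TBI cortex, and from 2726 to 2882 in sham thalamus and from 2464 to 2813 in TBI thalamus. The differences were -0.08 ± 0.042 in cortex (limma, adjusted p = 0.184, 95% interval -0.17 to 0.01) and -0.10 ± 0.042 in thalamus (limma, adjusted p = 0.0948, -0.19 to -0.0049). In both regions 5 of 6 TBI rats were under all 6 sham rats, and neither value passed the threshold in any of 22 alternatives.

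Gpx1, the abundant cytosolic glutathione peroxidase, was higher after TBI in cortex and not called in thalamus. It ran from 1520 to 1863 in sham cortex, median 1615, and from 1927 to 2593 in TBI cortex, median 2122. In thalamus it ran from 2161 to 2946 in sham rats, median 2866, and from 2361 to 3760 in TBI rats, median 2719. The cortical groups were separate, whereas the thalamic groups overlapped between 2361 and 2946. The difference was 0.41 ± 0.069 in cortex (limma, adjusted p = 0.000662), a level 32.6% higher, and 0.04 ± 0.11 in thalamus (limma, adjusted p = 0.822, 95% interval -0.20 to 0.27). The thalamic value turned to -0.05 without TBI rat 45, which held the value of 3760, and to -0.03 without sham rat 38, which held the lowest sham value, and it passed the threshold in no alternative.

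**Figure D2:**
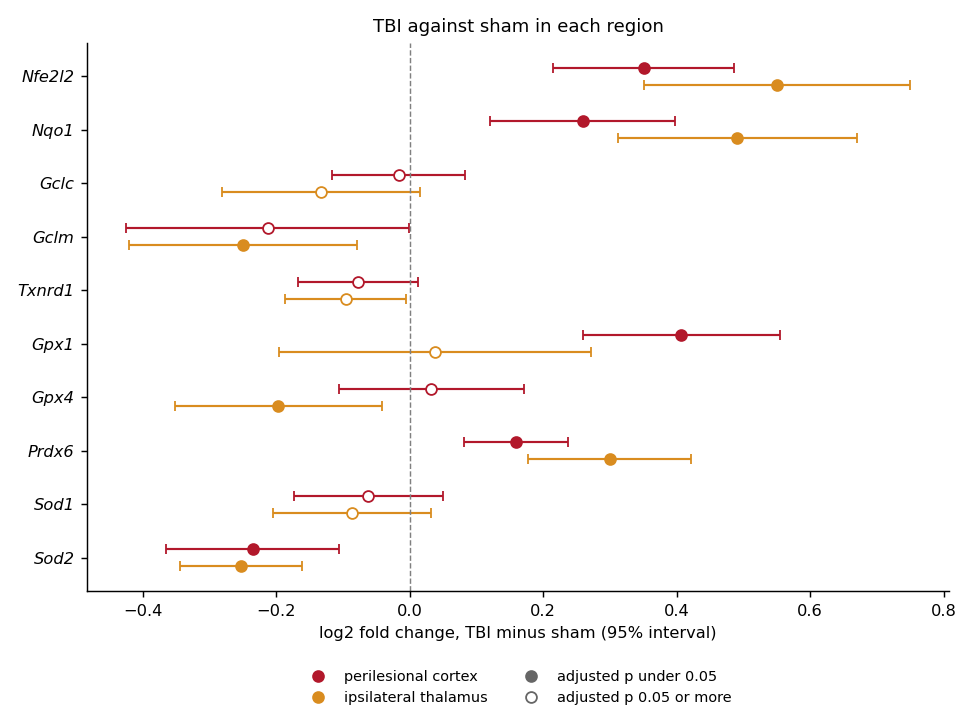
Log2 difference TBI minus sham (horizontal axis) of the 10 genes (vertical axis) in perilesional cortex and ipsilateral thalamus, with the 95% interval of limma, 6 rats in each group. Filled points have an adjusted p under 0.05. Nfe2l2, Nqo1 and Prdx6 lie above 0 and Sod2 below 0 in both regions, and Gpx1 lies at 0.41 in cortex and 0.04 in thalamus.

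Gpx4, the peroxidase that reduces lipid hydroperoxides in membranes, ran from 6497 to 8325 in sham cortex and from 6953 to 8563 in TBI cortex, with a difference of 0.03 ± 0.065 (limma, adjusted p = 0.743, 95% interval -0.11 to 0.17). In thalamus it ran from 7908 to 9971 in sham rats, median 8725, and from 6699 to 8638 in TBI rats, median 7900, and 3 of 6 TBI rats were under all sham rats. The thalamic difference was -0.20 ± 0.072 (limma, adjusted p = 0.0474). This call sat at the threshold and was lost in 15 of 22 alternatives, among them TMM factors (adjusted p = 0.141), edgeR (0.156), DESeq2 (0.0901) and the omission of sham rat 26, 32, 34, 50 or 55 or of TBI rat 22, 24, 45 or 63. Over all 22 the adjusted p ran from 0.0244 to 0.156.

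Prdx6, a peroxiredoxin that reduces phospholipid hydroperoxides and is abundant in astrocytes, rose in both regions with little spread. It ran from 5931 to 6278 in sham cortex, median 6167, and from 6590 to 7196 in TBI cortex, median 6846. In thalamus it ran from 7981 to 9448 in sham rats, median 8131, and from 9211 to 11501 in TBI rats, median 10215. The cortical groups were separate, and in thalamus 5 of 6 TBI rats were above all sham rats, the overlap resting on sham rat 32 at 9448. The difference was 0.16 ± 0.037 in cortex (limma, adjusted p = 0.00471), a level 11.7% higher, and 0.30 ± 0.057 in thalamus (limma, adjusted p = 0.00110), a level 23.1% higher. Both calls held in all 22 alternatives, over which the difference ran from 0.15 to 0.18 in cortex and from 0.27 to 0.35 in thalamus.

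Sod1, the cytosolic copper-zinc superoxide dismutase, was not called in either region. It ran from 5557 to 6063 in sham cortex and from 5048 to 6089 in TBI cortex, and from 7210 to 8657 in sham thalamus and from 6663 to 7796 in TBI thalamus. The differences were -0.06 ± 0.052 in cortex (limma, adjusted p = 0.40, 95% interval -0.17 to 0.05) and -0.09 ± 0.055 in thalamus (limma, adjusted p = 0.247, -0.20 to 0.03). In cortex 2 TBI rats lay above all sham rats and the other 4 below all of them.

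Sod2, the mitochondrial manganese superoxide dismutase, fell in both regions. It ran from 8606 to 9809 in sham cortex, median 9295, and from 6904 to 9216 in TBI cortex, median 7687. In thalamus it ran from 9831 to 10884 in sham rats, median 10321, and from 8208 to 9163 in TBI rats, median 8664. The thalamic groups were separate. In cortex 5 of 6 TBI rats were under all sham rats and TBI rat 63, at 9216, was the exception. The difference was -0.24 ± 0.061 in cortex (limma, adjusted p = 0.00963), a level that fell by 15.0%, and -0.25 ± 0.043 in thalamus (limma, adjusted p = 0.000430), a level that fell by 16.1%. Both calls held in all 22 alternatives.

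Cell type markers moved in the same libraries. All 14 microglial markers were called higher in thalamus and 13 of 14 in cortex, and their summed normalized count ran from 24440 to 27178 in sham cortex, 34491 to 40172 in TBI cortex, 26720 to 35280 in sham thalamus and 55652 to 68867 in TBI thalamus. Of 15 neuronal markers 11 were lower in cortex and 13 in thalamus and none was higher, with sums of 501630 to 531458 in sham cortex, 371816 to 467075 in TBI cortex, 357326 to 433429 in sham thalamus and 238802 to 301828 in TBI thalamus. Of 10 astrocytic markers 5 were higher and 2 lower in cortex, and 5 were higher and none lower in thalamus, with sums of 377668 to 398332 in sham cortex, 411064 to 455975 in TBI cortex, 287819 to 320308 in sham thalamus and 409048 to 469523 in TBI thalamus. Of 10 oligodendrocytic markers 3 were higher in cortex and 1 in thalamus. No marker of these 4 lists was at or under 3 fragments in all libraries. The part of these cells in the rises of Nfe2l2, Nqo1, Gpx1 and Prdx6 and in the falls of Sod2, Gclm and Gpx4 was not tested. The sum of 9 choroid plexus markers reached 268003 in the thalamus of TBI rat 45, 143 times the next TBI value, and 33497 in its cortex, and in sham thalamus it reached 109893, in rat 50. None of the 9 was called in either region. The label of each tissue was met by its markers: 8 of 8 thalamic markers were higher in thalamus, and 7 of 8 cortical markers higher in cortex, in sham and in TBI rats alike. After TBI, 5 of 8 thalamic markers were lower in thalamus and 3 of 8 cortical markers lower in cortex. In thalamus 3 of 6 cortical markers tested were lower too (Slc17a7, Rorb and Cux2). Slc17a7 is also among the neuronal markers, and Rorb is the 1 cortical marker that was not called higher in cortex. The sum of all 8 cortical markers ran from 12928 to 21006 in sham and from 8929 to 12221 in TBI thalamus, without overlap. In cortex 2 of 7 thalamic markers tested were higher and 2 lower. The part of such differences in tissue content in the members' changes was not tested. Of the other lists, endothelial markers were higher for 1 of 9 tested in cortex and 4 of 9 in thalamus. Of 8 lymphocyte markers 3 were tested in cortex and 1, Cd4, in thalamus, and Cd4 alone was called, higher in both. The T cell markers Cd3e, Cd3d and Cd3g had means of 9.27, 3.14 and 3.67 over the 24 libraries. The rise of Cd4 is that of 1 gene and does not stand for the list. No erythroid marker of 4 tested, and no neutrophil marker of 1 tested in cortex and 2 in thalamus, was called.

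Whether the effect of TBI differed between the regions was tested as the interaction of injury and region over all 24 libraries. None of the 10 genes was called by limma, against 7.26% of 15678 loci, while 4 had an unadjusted p under 0.05 (Nqo1, Gpx1, Gpx4 and Prdx6). edgeR and DESeq2 on the recovered fragments, without the rat as a block, also called none. Gpx1 stood nearest to the threshold. Its effect in thalamus minus that in cortex was -0.37 ± 0.14 (limma, adjusted p = 0.0976). With the rat as replicate block, which is given because both libraries of a rat come from the same animal, the difference of -0.37 was called (limma, adjusted p = 0.0214), as it was by edgeR with the block (-0.33, adjusted p = 0.0379). It was also called without the thalamus of TBI rat 45 (-0.46, adjusted p = 0.0147), without both libraries of that rat (-0.41, adjusted p = 0.0248) and without the thalamus of sham rat 38 (-0.43, adjusted p = 0.0418). Nqo1 at 0.23 ± 0.11 (limma, adjusted p = 0.189), Gpx4 at -0.23 ± 0.10 (0.174), Nfe2l2 at 0.20 ± 0.12 (0.324) and Prdx6 at 0.14 ± 0.065 (0.202) were called in no alternative. For Gclc, Gclm, Txnrd1, Sod1 and Sod2 the difference lay between -0.12 and -0.02, with adjusted p from 0.433 to 0.919.

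The levels in the 2 regions were then compared in sham rats and in TBI rats, with the 2 libraries of a rat not paired. With the rat as replicate block in limma, Sod2 in TBI rats was the only member whose call changed. In sham rats 7 of the 10 genes were higher in thalamus (Gclc, Gclm, Gpx1, Gpx4, Prdx6, Sod1 and Sod2), against 33.9% of 15582 loci, and none was lower, against 28.3% of loci. In TBI rats 6 were higher in thalamus (Nfe2l2, Nqo1, Gclm, Gpx1, Prdx6 and Sod1), against 31.0% of 15737 loci, and none was lower, against 26.5% of loci. Gpx1 had the largest regional difference of the 10 in sham rats, 0.72 ± 0.077 (limma, adjusted p = 6.70e-07), and Prdx6 the largest in TBI rats, 0.58 ± 0.051 (limma, adjusted p = 1.71e-07). Gclm was higher in thalamus by 0.56 ± 0.082 in sham rats and 0.52 ± 0.099 in TBI rats, and Sod1 by 0.39 ± 0.048 and 0.37 ± 0.058, with no overlap between the regions in either group of rats. Nfe2l2 did not pass the threshold in sham rats, at 0.12 ± 0.059 (limma, adjusted p = 0.0928), and was higher in thalamus in TBI rats, at 0.32 ± 0.096 (limma, adjusted p = 0.0113). Nqo1 likewise stood at 0.14 ± 0.075 in sham rats (limma, adjusted p = 0.114) and 0.37 ± 0.075 in TBI rats (limma, adjusted p = 0.000611). That these 2 passed in TBI rats alone does not show a difference between the groups. The interaction above is the test of it and did not call them, which does not show that there is none. Its value stayed above 0 in all 36 alternatives, at 0.18 to 0.27 for Nqo1 and 0.12 to 0.25 for Nfe2l2. In sham rats Nqo1 passed without the thalamus of rat 38 and Nfe2l2 without that of rat 38 or rat 55. Sod2 in TBI rats was at 0.15 ± 0.061 (limma, adjusted p = 0.0534) and was called with the rat as replicate block (adjusted p = 0.0369), with all 24 libraries in 1 fit (0.0173), with upper quartile factors (0.0369), and without the cortex of rat 63 (0.00491) or the thalamus of rat 45 (0.0417). Gclc in TBI rats was at 0.09 ± 0.056 (limma, adjusted p = 0.167) and passed without the thalamus of rat 52 (0.0270). Oligodendrocytic markers were higher in thalamus for 10 of 10 in both groups of rats, with sums of 235547 to 316630 in sham cortex and 737825 to 1024680 in sham thalamus, and endothelial markers were lower for 6 of 9 in sham and 2 of 9 in TBI rats. Microglial markers were higher in thalamus for 9 of 14 in sham and 14 of 14 in TBI rats. Astrocytic markers were higher for 5 and lower for 3 of 10 in sham rats and higher for 5 and lower for 2 in TBI rats, and neuronal markers higher for 6 and lower for 7 of 15 in sham rats and higher for 3 and lower for 8 in TBI rats. The part of these cells in the members' regional differences was not tested.

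**Figure D3:**
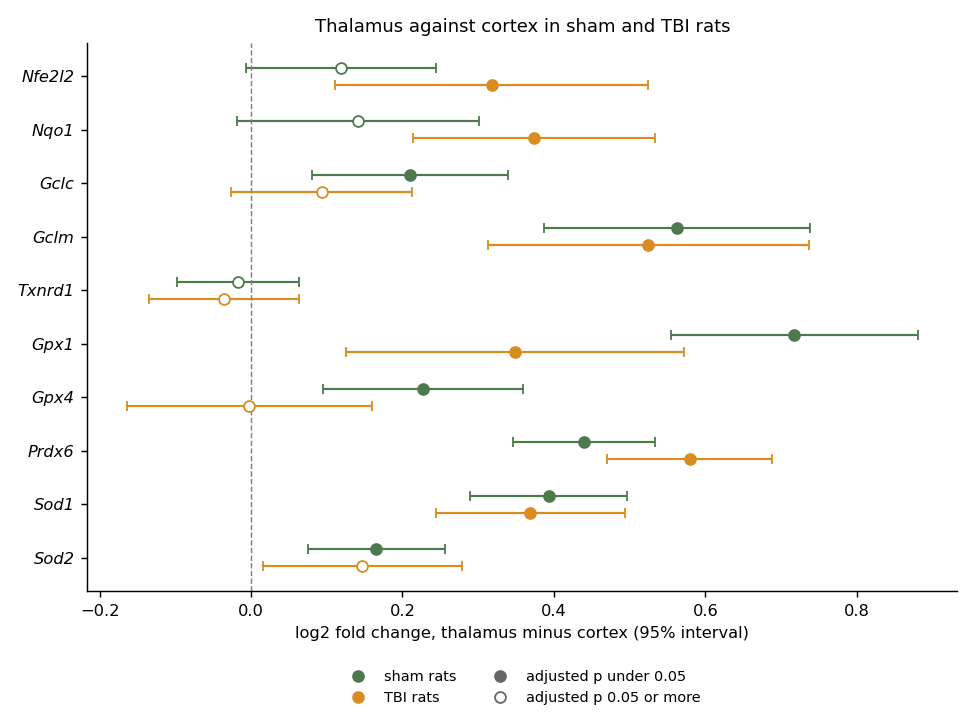
Log2 difference thalamus minus cortex (horizontal axis) of the 10 genes (vertical axis) in sham and in TBI rats, with the 95% interval of limma, 6 rats in each group. Filled points have an adjusted p under 0.05. Gclm, Gpx1, Prdx6 and Sod1 are filled in both groups of rats, and Txnrd1 stays at -0.02 and -0.04.

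By median level the 4 groups followed several orders. Nfe2l2 and Nqo1 were lowest in sham cortex, then sham thalamus, TBI cortex and TBI thalamus, and of these neighbours only TBI cortex and TBI thalamus of Nqo1 did not overlap. Prdx6 rose from sham cortex over TBI cortex and sham thalamus to TBI thalamus, with the first 3 groups apart from each other and the last 2 overlapping. Gpx1, Gpx4 and Gclc shared the order sham cortex, TBI cortex, TBI thalamus, sham thalamus, in which the step from sham to TBI cortex in Gpx1 was the one step without overlap. Gclm and Sod1 ran TBI cortex, sham cortex, TBI thalamus, sham thalamus, apart between the regions and overlapping within them. Sod2 ran TBI cortex, TBI thalamus, sham cortex, sham thalamus, with both TBI groups under both sham groups in median and sham cortex and sham thalamus apart. Txnrd1 ran TBI thalamus, TBI cortex, sham thalamus, sham cortex, and all neighbours overlapped.

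The genes around the 10 were counted in 3 lists, of other NRF2 regulators, other NRF2 targets and other antioxidant enzymes. Of 12 regulators tested in cortex, 1 was higher (Mafk) and 4 lower (Btrc, Nfe2l1, Gsk3b and Cul3), with a median log2 difference of -0.06, and in thalamus 2 were higher (Bach1 and Maff) and 2 lower (Btrc and Nfe2l1), with a median of -0.09. The higher and lower shares were 8.33% and 33.3% in cortex, against 14.3% and 14.9% of all loci. In thalamus they were 16.7% and 16.7%, against 14.5% and 20.9% of all loci. The call of Mafk (0.22 ± 0.079, limma, adjusted p = 0.0497) was lost in 12 of 22 alternatives, among them a pseudocount of 5 and the omission of sham rat 26, 32, 34, 50 or 55 or of TBI rat 24, 45, 52 or 56, and that of Nfe2l1 in cortex was lost in 5 of 22, at a threshold of 0.01 and without sham rat 26 or 38 or TBI rat 22 or 52. The median over all loci was -0.01 in cortex and -0.02 in thalamus. Keap1, the cytoplasmic inhibitor of NRF2, ran from 1801 to 2253 in sham cortex and from 1905 to 2513 in TBI cortex (0.03 ± 0.073, limma, adjusted p = 0.789), and from 2071 to 2498 in sham thalamus and from 1757 to 2550 in TBI thalamus (-0.15 ± 0.080, adjusted p = 0.161). Bach1 encodes a repressor that competes with NRF2 for its elements. In thalamus it was 0.31 ± 0.081 higher (limma, adjusted p = 0.00913), and in cortex it was at 0.17 ± 0.077 (adjusted p = 0.115).

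Of 24 other NRF2 targets tested in cortex, 11 were higher and 1 lower, with a median of 0.21, and of 23 in thalamus 9 were higher and 5 lower, with a median of 0.12. The background shares are those given above, 14.3% higher and 14.9% lower in cortex and 14.5% and 20.9% in thalamus. With TMM factors 3 rather than 5 targets were lower in thalamus. Mgst1, a membrane-bound glutathione transferase, ran from 82.4 to 179 in sham cortex and from 281 to 456 in TBI cortex, and from 446 to 614 in sham thalamus and from 1072 to 1451 in TBI thalamus. Its differences of 1.65 ± 0.18 and 1.25 ± 0.086 were 3.14-fold and 2.37-fold. Hmox1, heme oxygenase, ran from 149 to 224 in sham cortex and from 289 to 565 in TBI cortex, and from 200.2 to 338 in sham thalamus and from 579 to 762 in TBI thalamus. Its differences were 1.08 ± 0.15 and 1.33 ± 0.11, or 2.11-fold and 2.51-fold. Both genes were above all sham rats in every TBI rat, exceeded in size any change among the 10 members, and were called in all 22 alternatives of each region.

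Of the ferritin targets, both rose, and of the soluble glutathione transferases Gstp1 rose in both regions and Gsta4 in cortex. Ftl1, the ferritin light chain, was 0.74 ± 0.079 higher in cortex and 0.74 ± 0.082 in thalamus, and Gstp1 was 0.47 ± 0.056 higher in cortex and 0.66 ± 0.063 in thalamus. Fth1, the ferritin heavy chain, was 0.60 ± 0.070 higher in thalamus and 0.17 ± 0.056 in cortex (limma, adjusted p = 0.0294), a cortical call lost in 9 of 22 alternatives, and its effect differed between the regions by 0.42 ± 0.089 (limma, adjusted p = 0.00438). In cortex Gsta4 (0.39 ± 0.087) and Ephx1 (0.31 ± 0.086) were higher as well, the latter not with all 24 libraries in 1 fit (adjusted p = 0.219). Gsta4 in thalamus was at 0.25 ± 0.15 (adjusted p = 0.211), and Gstm1 was at 0.14 ± 0.057 in cortex (adjusted p = 0.0771) and 0.14 ± 0.094 in thalamus (0.270). Ferritins and glutathione transferases have close copies, the Ftl1 locus joins 2 names, and the Fth1 locus spans 243757 bases, so their values are uncertain. The name Ftl1 matched 2 loci, and the 1 with the highest mean was used. Slc7a11, the cystine carrier that feeds glutathione synthesis, ran from 3290 to 4516 in sham cortex and from 4053 to 6742 in TBI cortex (0.46 ± 0.11, limma, adjusted p = 0.00671, and 0.104 with all 24 libraries in 1 fit), and from 1550 to 2842 in sham thalamus and from 2557 to 8547 in TBI thalamus (0.86 ± 0.25, adjusted p = 0.0170). The 8547 belonged to rat 45, the rat with the high choroid plexus sum, and without that library the thalamic difference was 0.59 ± 0.13 (adjusted p = 0.0037).

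Srxn1, sulfiredoxin, which repairs oxidised peroxiredoxins and is a known NRF2 target, moved against these. It ran from 1593 to 1998 in sham thalamus and from 1218 to 1389 in TBI thalamus, with no overlap, and was lower (-0.42 ± 0.063, limma, adjusted p = 0.000169). It was called lower in all 22 alternatives, at -0.45 to -0.37. In cortex it ran from 1442 to 1811 in sham rats and from 1373 to 1575 in TBI rats (-0.14 ± 0.062, adjusted p = 0.109). Its difference between the regions, -0.28 ± 0.088, was at the threshold (limma, adjusted p = 0.0495) and lost the call in 22 of 36 alternatives. Cbr1, a carbonyl reductase, ran from 110.3 to 141 in sham cortex and from 137 to 174 in TBI cortex (0.25 ± 0.093, limma, adjusted p = 0.0560), and from 225 to 332 in sham thalamus and from 192 to 263 in TBI thalamus (-0.42 ± 0.11, adjusted p = 0.00997). Its effect differed between the regions by -0.66 ± 0.14 (limma, adjusted p = 0.00511), called in all 36 alternatives. The name Cbr1 matched 3 loci, and these values are of the 1 with the highest mean alone. Tkt, Gsr and Txn1 were also lower in thalamus, Tkt and Txn1 not so with TMM factors, and Me1 was the 1 target lower in cortex.

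Of 23 other antioxidant enzymes tested, 5 were higher and 4 lower in cortex, with a median of -0.05, and 4 were higher and 6 lower in thalamus, with a median of -0.03. The higher and lower shares were 21.7% and 17.4% in cortex, not far from the 14.3% and 14.9% of all loci. In thalamus they were 17.4% and 26.1%, not far from the 14.5% and 20.9% of all loci. Lower calls in cortex fell to 1 with upper quartile factors and with edgeR. Not every gene of this list is itself an antioxidant enzyme. Txnip, counted among the higher in both regions, encodes a protein that binds and inhibits thioredoxin. It had the largest change of the list, 0.93 ± 0.11 in cortex and 0.83 ± 0.16 in thalamus. Gpx8, a peroxidase of the endoplasmic reticulum, was 0.36 ± 0.084 higher in cortex. In thalamus it was 0.49 ± 0.16 higher (limma, adjusted p = 0.0309), a call lost in 4 of 22 alternatives. The peroxiredoxins split. Prdx1, counted among the targets, was 0.24 ± 0.047 higher in cortex and 0.35 ± 0.058 in thalamus. Prdx4 was higher in both, with a thalamic call (0.30 ± 0.0975, limma, adjusted p = 0.0252) lost in 3 of 22 alternatives. The mitochondrial Prdx3 was lower in both, with a cortical call lost in 13 of 22 alternatives, and Prdx2 and Prdx5 were lower in thalamus. Cat, catalase, ran from 2318 to 2964 in sham cortex and from 2465 to 3219 in TBI cortex (0.09 ± 0.081, limma, adjusted p = 0.460), and from 3211 to 4279 in sham thalamus and from 2739 to 5089 in TBI thalamus (-0.03 ± 0.13, adjusted p = 0.864).

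**Figure D4:**
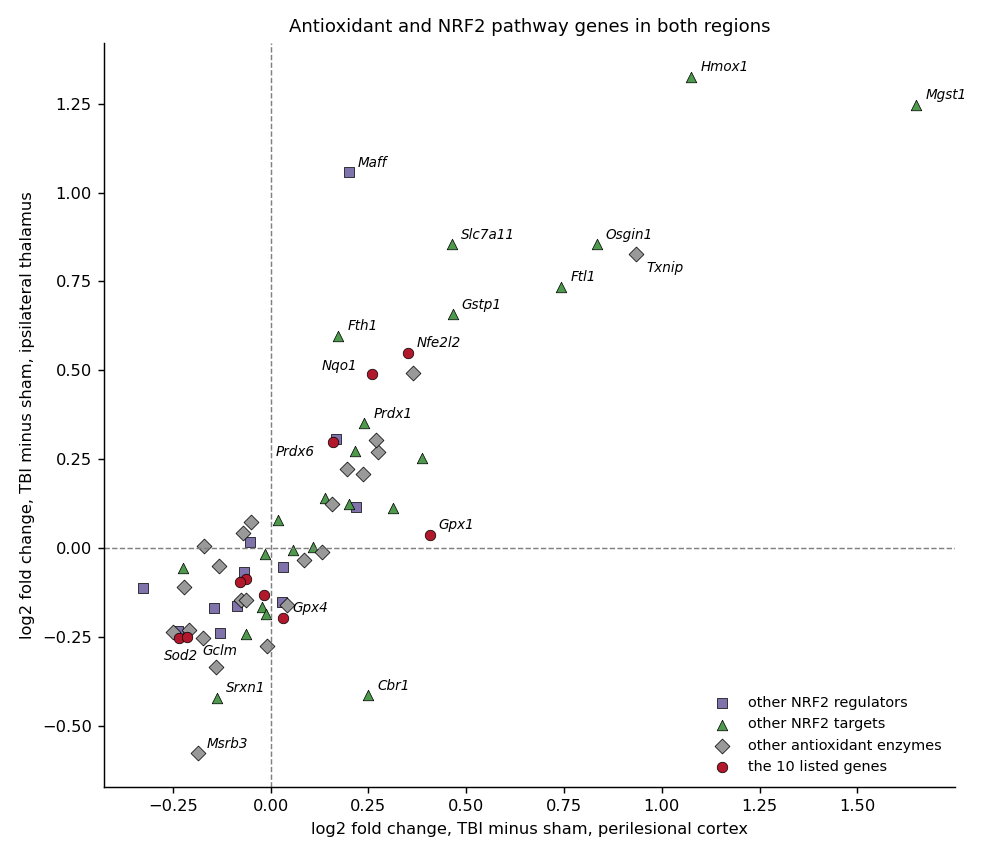
Log2 difference TBI minus sham in perilesional cortex (horizontal axis) and ipsilateral thalamus (vertical axis) for 68 genes tested in both, each a point, with the 10 members as circles, 12 other NRF2 regulators, 23 other NRF2 targets and 23 other antioxidant enzymes. Mgst1 and Hmox1 lie farthest up and to the right, Nfe2l2, Nqo1 and Prdx6 lie above 0 on both axes, and Gpx1 lies at 0.41 and 0.04.

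The loci whose values over the 24 libraries were most like those of a member are given as a description, with the Pearson r of log2 values. These r pool 4 groups that differ in level, so they follow group means as well as rats. The closest were Add3 for Nfe2l2 (0.96) with Usp53 next (0.96), Cd63 (0.95) and Ppp1r36 (0.95) for Nqo1, and Dbi (0.98) and Prdx1 (0.97) for Prdx6. For Gclm they were Acbd5 (0.98) and Tmem41b (0.98), for Sod2 Ociad1 (0.96) and Tspyl4 (0.96), for Sod1 Podxl2 (0.96) and DDIT3 (0.96), and for Gpx1 Agtrap (0.95) and Tekt1 (0.94). Gpx4 was closest to Ndufa11 and RGD1303003 (0.92 each) and Gclc to Ogfrl1 (0.87) and PRUNE2 (0.85). Txnrd1 had the lowest values, 0.80 with Clip1 and 0.77 with Tox4.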

How the data were processed

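Polyadenylated RNA was sequenced from 24 libraries with a stranded kit. The authors aligned reads with TopHat2 2.0.11 and Bowtie2 2.2.2 and assembled loci with Cufflinks 2.2.1; the submitters name Rnor_5.0, and the methods name RGSC3.4 as genome with the Rnor_5.0 annotation. The deposited signal is the fragment count per locus that the authors divided by 1 size factor per library; in every library 100% of values up to 20 steps were whole multiples of 1 step within 0.01 step, which gave back the fragments. Unnamed loci (37.1% of loci, 1.90% to 2.23% of values) were left out.

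Named loci with a mean of at least 10 were tested with limma 3.58.1 (R 4.3.3) on log2(normalized count + 1) with a mean trend and Benjamini-Hochberg adjustment over all loci, at a threshold of 0.05, within each region, between regions within sham and TBI rats, and for the interaction. On data simulated for the cortical comparison, with 15500 loci tested, 96% of loci changed by 0.6 and 100% of those changed by 1 (log2) were recovered, with 10 calls at unchanged loci. For the interaction, with 15683 loci, the shares were 71% and 99%. The simulation gave all loci 1 dispersion, did not pair the libraries of a rat and changed 100 loci by each size. The TBI differences and interactions of the 10 members were all smaller than 0.6, so the shares do not give the recovery at their size. Library numbers are rat numbers, so cortex and thalamus of a rat pair: over all loci, the 2 libraries of a rat, each taken as its deviation from the mean of its group, had a median correlation of 0.187 (0.00393 to 0.569, above 0.1 in 10 of 12 rats) against -0.0332 for different rats. The rat as replicate block was an alternative, with TMM and upper quartile scaling, other filters and pseudocounts, a threshold of 0.01, 1 fit of all libraries and leaving out each library. edgeR 4.0.16 and DESeq2 1.42.0 on the recovered fragments, edgeR with the rat as replicate block, and leaving out both libraries of TBI rat 45 were chosen after seeing the data.

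The 10 genes and all lists were chosen with earlier results of these data known. Members are named in every comparison; of the wider lists, up to 8 genes per region with the largest change among called genes without overlap, and Keap1, Hmox1, Srxn1, Slc7a11 and Cat; other genes named from them were chosen after their values were seen. Promoters are from RefSeq (GRCr8). Python 3.11.15 (pandas 2.3.3) handled the tables, and matplotlib 3.10.9 the plots.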

Additional observations from a re-analysis of the deposited data

Results flagged for a closer look

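Among the 40 sets of 6 values (10 genes in 4 groups), 4 held a rat set apart from the other 5 by Dixon's criterion at 95%, and chance alone gives about 2. Gclc in sham cortex was 2718 in rat 50, against 2406 in the next rat. Gclc in sham thalamus was 3353 in rat 38, against 2849 in the next. Prdx6 in sham thalamus was 9448 in rat 32, against 8391, and this rat is the overlap between sham and TBI thalamus. Gpx1 in TBI thalamus was 3760 in rat 45, against 2874, and this is the library with the summed choroid plexus count of 268003; without it the thalamic difference of Gpx1 went from 0.04 to -0.05 and was called in neither case.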

How the results depend on the processing

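Of 1280 results for a gene under an alternative, 1211 kept direction and call, 23 lost the call, 15 gained it and 31 changed sign. Nfe2l2, Nqo1, Prdx6 and Sod2 in both regions and Gpx1 in cortex kept direction and call in all 22 alternatives. The causes of the changes listed here were not tested. At a threshold of 0.01 the loci called fell to 2436 in cortex, 3429 in thalamus and 404 for the interaction. On the recovered fragments edgeR called 4435, 5122 and 1090 loci in these 3 comparisons and DESeq2 4964, 5690 and 1512, against 4531, 5516 and 1138 with limma. The members called lower in thalamus were 1 with TMM factors, 1 at a threshold of 0.01, 1 with edgeR, and 1 to 3 when single libraries were left out, the 1 without sham rat 55 or TBI rat 24. In cortex they were 1 to 2, the 2 without TBI rat 63. For the interaction 1 member, Gpx1, was called with the rat as replicate block, 1 with edgeR and the block and 1 without both libraries of TBI rat 45, and 0 to 1 when single libraries were left out. The block changed the call of Sod2 between regions in TBI rats and of Gpx1, and no other call of a member. Sign changes concerned differences near 0 that were called neither way. With upper quartile factors Gclc in cortex was 0.0023, Gpx4 between regions in TBI rats 0.0108, and the interaction of Txnrd1 0.0079, Sod1 0.0015 and Sod2 0.0076. With edgeR the interaction was 0.0229 for Txnrd1, 0.0117 for Sod1 and 0.0185 for Sod2, and with edgeR and the block 0.0021 for Gclm, 0.0220 for Txnrd1, 0.0155 for Sod1 and 0.0216 for Sod2. Leaving out single libraries, Gclc in cortex ran from -0.0350 to 0.0141, Gpx4 in cortex from -0.0091 to 0.0625, Gpx1 in thalamus from -0.0510 to 0.0832 and Gpx4 between regions in TBI rats from -0.0369 to 0.0364, and the interaction ran from -0.1024 to 0.0338 for Gclm, from -0.0368 to 0.0020 for Txnrd1, from -0.0515 to 0.0131 for Sod1 and from -0.0544 to 0.0290 for Sod2. Depth bears most on Nqo1, the member with the fewest fragments, at least 509 in every library.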

Other observations

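The 2 subunits of glutamate-cysteine ligase were set against each other as log2(Gclc/Gclm), a ratio chosen after the values were seen. In cortex it was 0.36 ± 0.12 (SD, n = 6) in sham rats and 0.55 ± 0.20 (SD, n = 6) in TBI rats, a difference of 0.20 (exact permutation test over rats, two-sided, p = 0.0671, adjusted for 2 tests 0.108). In thalamus it was 0.0035 ± 0.076 (SD, n = 6) and 0.12 ± 0.14 (SD, n = 6), a difference of 0.12 (exact permutation test, two-sided, p = 0.108). The smallest p that 6 against 6 rats allow is 0.00216. Neither difference passed 0.05.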
